A study of Mus musculus with 6 samples.

Results

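The iron uptake and storage genes are 10 of the 55291 gene symbols in the table: the transferrin receptors Tfrc and Tfr2, the ferritin subunits Fth1 and Ftl1, the iron regulatory proteins Aco1 and Ireb2, the iron transporters Slc11a2 and Slc40a1, the ferrireductase Steap3 and the ferritin receptor Ncoa4. They were chosen by symbol, and all 10 symbols were found. Tfrc was already known to be among the largest differences between the genotypes when the list was drawn up. The WT against Nat10 cKO differences of the members are therefore described with their errors and carry no p-values. Messenger RNA had been sequenced by Smart-seq2 from fully grown mouse oocytes (FGO in the labels), with 10 oocytes in each library. WT females gave 3 libraries, and females carrying Gdf9-cre and a conditional Nat10 knockout (Nat10 cKO) gave 3. Gdf9 is expressed in oocytes, so that this Cre removes Nat10, the gene of the RNA cytidine acetyltransferase, in the germ cell and not in the surrounding follicle. All females were mature and had received PMSG, a gonadotropin that stimulates follicle growth. The labels do not say whether WT females carried floxed alleles or Cre, nor whether the libraries of a group came from different animals. Where they did not, an error or p-value measures only the spread between these samples, which may be technical.

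Cells take up iron when transferrin binds its receptor at the surface and the pair is internalised. In endosomes the iron is released, reduced by a ferrireductase and carried into the cytosol by SLC11A2 (DMT1). Iron that is not used is stored in ferritin, a shell of heavy and light chains, exported by SLC40A1 (ferroportin), or released again when NCOA4 takes ferritin to the lysosome. The regulatory proteins encoded by Aco1 and Ireb2 bind a hairpin in mRNA, the iron-responsive element, when iron is scarce. Bound near the start of an mRNA such as those of ferritin or ferroportin, they block its translation. Bound in the 3′ UTR of Tfrc mRNA, they protect it from decay.

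The transcripts of the members were searched for this element, because it is the sequence through which several of them are known to be controlled. The search was for a C, then 5 stem bases, the 6-base loop CAGTGN and 5 further bases of which at least 4 form Watson-Crick pairs with the first 5, on the sense strand of GENCODE M21 transcripts (GRCm38). Matches were found in 4 of the 10 members, all in UTRs. Each is printed 5′ to 3′ with 6 flanking bases on each side of the match and the loop in capitals.
Tfrc match 1, 3′ UTR, chr16:32631219-32631247, plus strand: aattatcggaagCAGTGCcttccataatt
Tfrc match 2, 3′ UTR, chr16:32631598-32631626, plus strand: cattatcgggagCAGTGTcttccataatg
Tfrc match 3, 3′ UTR, chr16:32631663-32631691, plus strand: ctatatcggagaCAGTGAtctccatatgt
Tfrc match 4, 3′ UTR, chr16:32631710-32631738, plus strand: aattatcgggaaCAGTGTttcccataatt
Fth1, 5′ UTR, chr19:9982732-9982760, plus strand: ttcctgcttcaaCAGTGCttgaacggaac
Ftl1, 5′ UTR, chr7:45459779-45459807, minus strand: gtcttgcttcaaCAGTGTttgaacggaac
Slc40a1, 5′ UTR, chr1:45925465-45925493, minus strand: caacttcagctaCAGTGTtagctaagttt

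The elements of the 2 ferritin genes were nearly the same, with 26 of 29 bases alike. Within Tfrc, matches 1 and 2 shared 25 of 29 bases, and matches 1 and 4 shared 24. Between Fth1 and Tfrc match 1, 10 of 29 bases were alike. All 5 stem positions were Watson-Crick pairs in every printed element except match 2 of Tfrc, where 4 were and 1 was G opposite T. Not every annotated coding transcript held the match. It was in 1 of 3 for each Tfrc match, 4 of 5 for Fth1, 1 of 2 for Ftl1 and 1 of 4 for Slc40a1. The gene counts below join the forms with and without it. Of 21511 protein-coding genes searched, 3.32% held a match anywhere in a coding transcript and 0.302% one with all 5 positions paired. No match was found in Tfr2, Steap3, Slc11a2, Ncoa4, Aco1 or Ireb2, which says only that these letters are not in the transcripts searched.

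**Figure D1:**
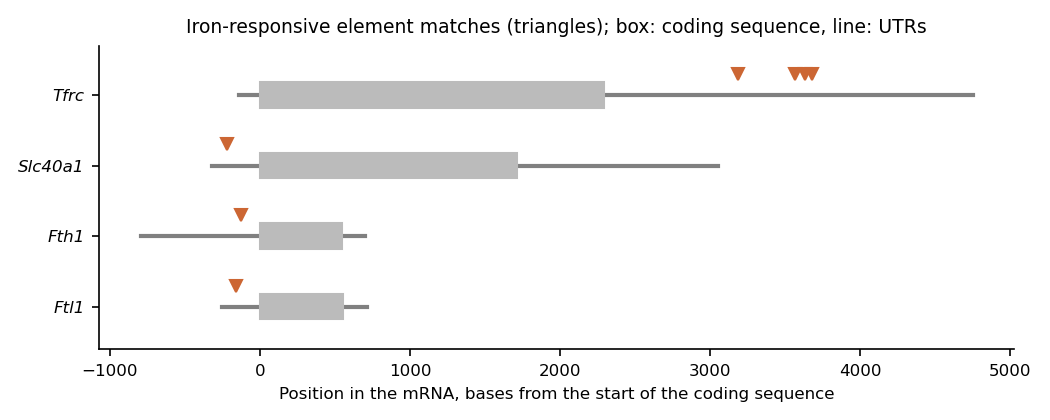
Positions of the iron-responsive element matches (triangles) along 1 annotated mRNA of each gene; the x axis is the distance in bases from the start of the coding sequence, the grey box is the coding sequence and the line the UTRs. The 4 Tfrc loops lie 895, 1274, 1339 and 1386 bases after the stop codon, and those of Slc40a1, Fth1 and Ftl1 lie before the coding sequence.

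Levels are given as TMM-scaled CPM, that is read counts divided by the size of the library after edgeR's scaling for composition. The libraries held between 33.5 and 74.1 M reads assigned to genes. Nat10 itself fell in the Nat10 cKO libraries, from 43.9 ± 5.59 to 6.01 ± 0.301 CPM (SD, n = 3; log2 difference -2.67, SE 0.13, limma adjusted p = 4.28e-08). Oocyte markers such as Gdf9, Bmp15 and Zp2 were abundant in all 6 libraries. Across the table, 35.0% of 18353 tested genes passed a limma adjusted p of 0.05, 17.4% higher and 17.6% lower in Nat10 cKO. This common background applies to every count below. In pools of whole cells, fewer cells of a type and less RNA per cell cannot be told apart.

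Of the 10 members, 9 passed the filter on low counts, and 5 of them lay past the all-gene threshold with a higher level and 1 with a lower level in Nat10 cKO. The higher ones were Tfrc, Tfr2, Slc11a2, Slc40a1 and Ftl1. The lower one was Ireb2, whose difference was about 0 on the deposited scale (0.0088, SE 0.40), where values are not divided by library size. Nothing is read from these counts, since the list was drawn up with the contrast in view. The groups did not overlap for 7 members, 6 of them higher (those 5 and Fth1) and Ireb2 lower, against 48.3% of all tested genes. The median difference of the 9 tested members was 0.37 on the log2(CPM + 1) scale, beside 0.00096 for all tested genes. For the same reason, nothing is read from the overlaps or from this median. Tfr2 and Slc40a1 were also tested only because of their Nat10 cKO libraries. The number past the threshold rested on single libraries. Leaving out WT replicate 3 gave 1 higher and 0 lower. Leaving out WT replicate 1 gave 3 higher and 0 lower, as did leaving out Nat10 cKO replicate 1 or 2. The 1 left with WT replicate 3 omitted was Tfrc. Over all genes, 2108 were higher and 2201 lower when that library was omitted.

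Tfrc (ENSMUSG00000022797.16, chromosome 16, 32608920 to 32632794, GRCm38) encodes the receptor that brings transferrin-bound iron into the cell. Its level was 13.0, 14.9 and 13.2 CPM in WT replicates 1, 2 and 3 and 64.2, 84.3 and 43.1 CPM in Nat10 cKO replicates 1, 2 and 3. Every Nat10 cKO library lay far above every WT library, and the Nat10 cKO libraries were spread more widely than the WT ones. The mean was 13.7 ± 1.01 in WT and 63.9 ± 20.6 CPM in Nat10 cKO (SD, n = 3). The difference was 2.09 on the log2(CPM + 1) scale (SE 0.18), or 4.27-fold, and it was rank 17 of all tested genes by rise. Leaving out any 1 library kept it between 1.88 and 2.35. The values rest on 420, 517 and 852 reads in WT and 4804, 4010 and 3118 reads in Nat10 cKO libraries.

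Tfr2, the second transferrin receptor, known as an iron sensor of the liver and of red cell precursors, was close to the detection limit. It had 4, 2 and 0 reads in the WT libraries and 36, 18 and 22 reads in the Nat10 cKO libraries. A count of 0 in WT replicate 3 allows up to 0.0466 CPM there. All Nat10 cKO libraries held more, at 0.481, 0.378 and 0.304 CPM. Pooled over libraries, the ratio of Nat10 cKO to WT was 8.56, with a 95% interval of 3.75 to 24.0 (exact binomial). The interval covers counting error only and takes each read as independent. All counts of Tfr2, Steap3 and Slc40a1 were even, so their reads may have been counted in pairs, which was not tested. Other members had odd counts, such as 517 for Tfrc and 3965 for Fth1 in WT replicate 2, so not all reads were counted in pairs. If those of Tfr2, Steap3 and Slc40a1 were, these intervals are too narrow and the limits for a count of 0 too low. Tfr2 entered the test only through its Nat10 cKO libraries, since 0 WT libraries reached the filter level of 0.177 CPM. As the list was drawn up with the contrast in view and the interval pools reads over libraries, nothing is read from its lying above 1.

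Steap3, the ferrireductase known from red cell precursors, was the member with the fewest reads and did not pass the filter. It had 2, 0 and 2 reads in WT and 8, 0 and 12 reads in Nat10 cKO libraries. The groups overlapped, as 1 library of each was at 0, where 3 reads would be 0.0862 CPM in WT replicate 2 and 0.0631 CPM in Nat10 cKO replicate 2. The pooled ratio was 3.38, with a 95% interval of 1.13 to 13.6 for counting error only, each read taken as independent. As its counts were all even, nothing is read from the interval lying above 1. Another gene of the same family, Steap2, chosen here after its values were seen, was well detected, at 159 ± 13.7 in WT and 148 ± 6.17 CPM in Nat10 cKO (SD, n = 3; log2 difference -0.11, SE 0.091). The difference of the Steap2 means was smaller than the SD of its WT libraries.

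Slc11a2, which moves ferrous iron out of endosomes, was an abundant transcript with a small difference. Its level was 83.7, 92.9 and 84.3 in WT and 99.5, 117 and 104 CPM in Nat10 cKO libraries. The groups did not overlap, with Nat10 cKO replicate 2 the highest. The difference was 0.29 on the log2 scale (SE 0.095), from 87.0 ± 5.15 to 107 ± 9.03 CPM (SD, n = 3). The gene count joins its transcripts with and without the 3′ element known for this gene, so that these forms are not told apart. Of its exon bases, 402 overlap the opposite-strand gene Gm5475, and whether the counting used strand was not stated.

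Slc40a1, the only known cellular iron exporter, was nearly absent from the oocytes. It had 4, 10 and 12 reads in WT and 62, 22 and 36 reads in Nat10 cKO libraries, or 0.124, 0.287 and 0.187 CPM against 0.829, 0.462 and 0.498 CPM. The Nat10 cKO libraries lay above the WT libraries, with replicate 1 the highest. The pooled ratio was 3.12, with a 95% interval of 2.03 to 4.97 for counting error only, too narrow if reads were counted in pairs. On the log2(CPM + 1) scale, which understates the change of a gene this low, the difference was 0.41 (SE 0.12), and with a pseudocount of 0.1 it was 1.22. Only 2 WT libraries reached the filter level, so Slc40a1, too, was tested because of its Nat10 cKO libraries. As for Tfr2, nothing is read from its interval lying above 1.

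**Figure D2:**
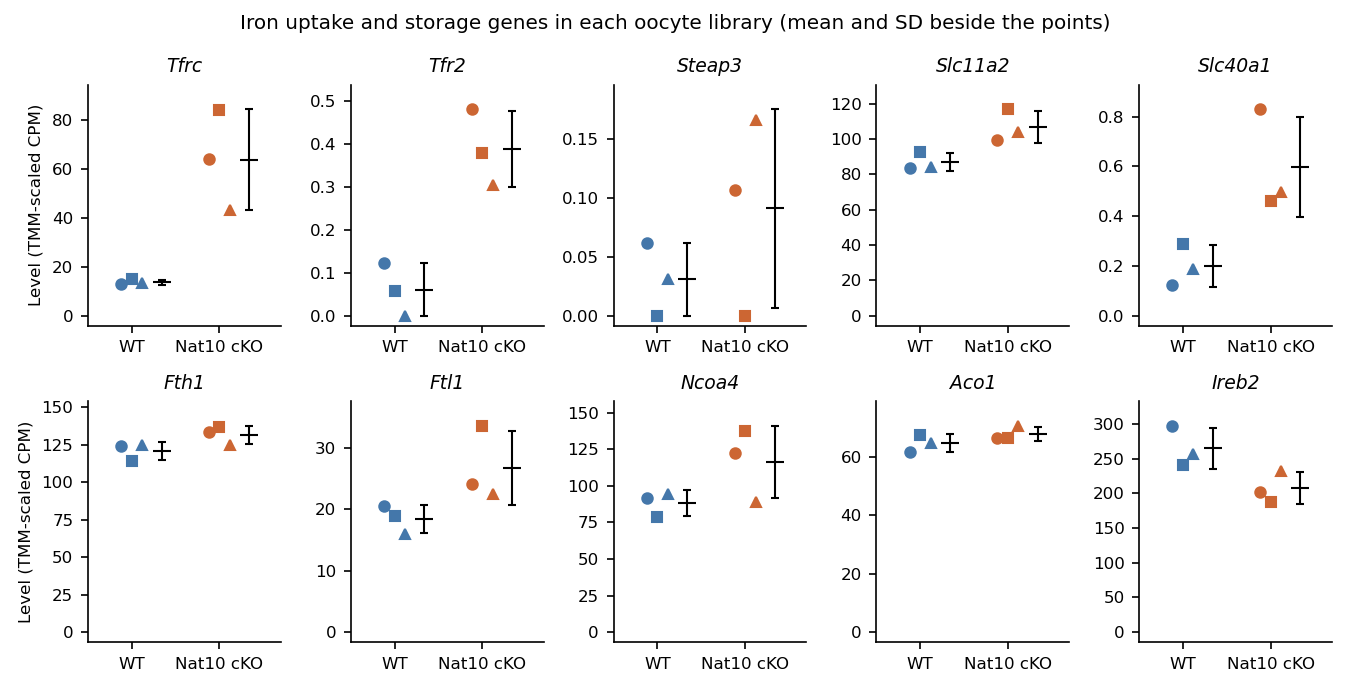
TMM-scaled CPM (y axis, a scale of its own in each panel) of the 10 members in WT (blue) and Nat10 cKO (orange) libraries; circle, square and triangle are replicates 1, 2 and 3, and the black bar is the mean with its SD (n = 3). Tfrc stands out, at 13.0 to 14.9 in WT and 43.1 to 84.3 CPM in Nat10 cKO, while Tfr2, Steap3 and Slc40a1 stay under 1 CPM in every library.

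The ferritin subunits differed from each other. Fth1, the heavy chain that oxidises iron for storage, was at 124, 114 and 124 in WT and 133, 136 and 125 CPM in Nat10 cKO libraries. The groups came close to each other without overlapping, and the difference of 0.12 (SE 0.087) was small beside the median size of 0.24 over all tested genes and turned to -0.09 with the deposited factors on shares of reads. Ftl1, the light chain, which helps the iron core to form, was at 20.4, 18.9 and 16.0 in WT and 24.0, 33.6 and 22.5 CPM in Nat10 cKO libraries. All Nat10 cKO libraries were higher, replicate 2 the most. The Ftl1 difference was 0.50 (SE 0.15), from 18.4 ± 2.24 to 26.7 ± 6.0 CPM (SD, n = 3), and it was 0.33 without Nat10 cKO replicate 2. Per exon length (the union of annotated exons), the ratio of Fth1 to Ftl1 was 2.35, 2.33 and 3.00 in WT libraries. It was 2.14, 1.57 and 2.14 in Nat10 cKO libraries, lower in all 3. Ftl1 values are uncertain because 355 of its exon bases overlap Gm10252 on the opposite strand and 109 overlap Gm22133 on the same strand. Copies of Ftl1 elsewhere in the genome can also share its reads. The copy Ftl1-ps1 was listed at 0.911 ± 0.336 in WT and 2.23 ± 0.835 CPM in Nat10 cKO (SD, n = 3).

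Ncoa4, the receptor that takes ferritin to the lysosome, was at 91.9, 78.4 and 94.7 in WT and 122, 137 and 89.0 CPM in Nat10 cKO libraries. The groups overlapped, because Nat10 cKO replicate 3 lay within the WT range. The difference was 0.37 (SE 0.14), and leaving out Nat10 cKO replicate 3 or 2 gave 0.56 or 0.25. Its pseudogene Ncoa4-ps held 178 reads in all WT libraries together, against 11793 for Ncoa4.

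The genes of the 2 iron regulatory proteins had different patterns. Aco1 encodes IRP1, which is a cytosolic aconitase while it carries an iron-sulfur cluster and an RNA-binding protein without it. It was at 61.9, 67.8 and 64.9 in WT and 66.4, 66.4 and 70.8 CPM in Nat10 cKO libraries, and the groups overlapped (difference 0.07, SE 0.091, or -0.15 with the deposited factors on shares). Ireb2 encodes IRP2, which is removed through FBXL5 when iron is plentiful. Its level was 298, 241 and 256 in WT and 202, 188 and 233 CPM in Nat10 cKO. Its highest Nat10 cKO value was under its lowest WT value, with Nat10 cKO replicate 2 the lowest. The Ireb2 difference was -0.35 (SE 0.10), from 265 ± 29.4 to 207 ± 23.0 CPM (SD, n = 3). It was -0.26 without WT replicate 1, but 0.0088 (SE 0.40) on the deposited scale. Per exon length, the ratio of Ireb2 to Aco1 was 2.28, 1.68 and 1.87 in WT and 1.44, 1.34 and 1.56 in Nat10 cKO libraries.

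To order the genes among themselves, levels were divided by the exon length of each gene, the union of all its annotated exons. This union can be much longer than a single mRNA, at 3469 against 1494 bases for Fth1 and 1340 against 968 for Ftl1. The order and the size of the ratios between members therefore depend on this choice, and other lengths were not tried. In WT, Fth1 was highest, at 34.9 ± 1.75 CPM per kb, followed by Ireb2 at 27.9 ± 3.11 (SD, n = 3), and their libraries did not overlap. Aco1, Ftl1 and Slc11a2 followed at 14.4, 13.8 and 13.7 CPM per kb, and neighbours among these 3 overlapped. Ncoa4 was at 9.43 and Tfrc at 2.21 ± 0.163 CPM per kb, each apart from its neighbours. In Nat10 cKO, Tfrc reached 10.3 ± 3.33 CPM per kb, where its libraries overlapped those of Ncoa4 at 12.4 ± 2.65. Ftl1, at 19.9 ± 4.48, stood ahead of Aco1 in that group. The ratio of Tfrc to Fth1 per length was 0.0586, 0.0731 and 0.0597 in WT and 0.270, 0.346 and 0.194 in Nat10 cKO libraries, and every Nat10 cKO value was above every WT value.

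**Figure D3:**
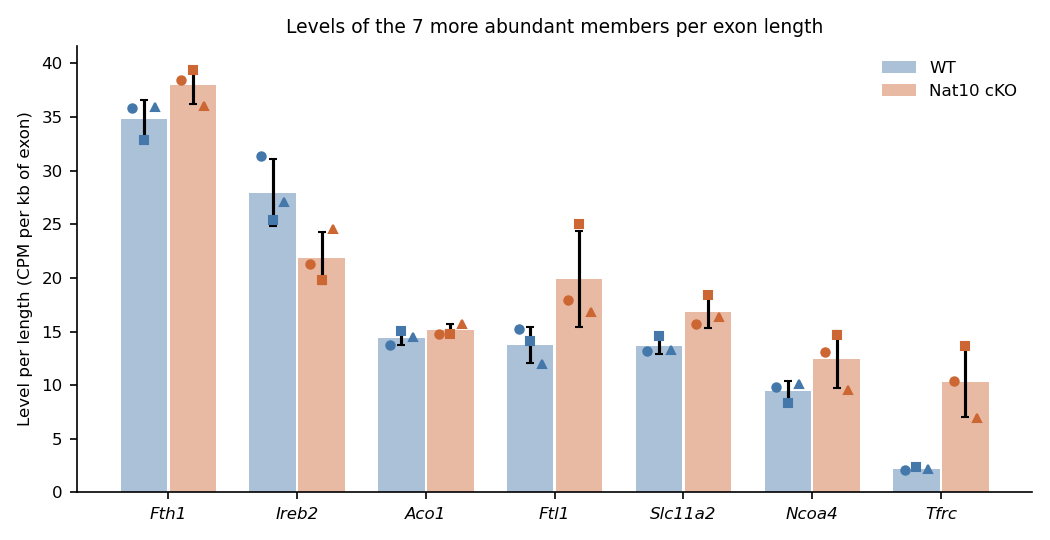
Level per exon length (y axis, TMM-scaled CPM per kb) of the 7 members above 1 CPM per kb; bars are means, error bars SD (n = 3) and points the libraries, with circle, square and triangle for replicates 1, 2 and 3. Fth1 leads in both groups at 34.9 and 37.9, and Tfrc is last in both, at 2.21 in WT and 10.3 in Nat10 cKO.

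The differences depend on the scale that is taken as equal between the genotypes. The deposited values were scaled by 1 factor per library of unstated origin, and as deposited the median of all genes was shifted by 0.24 toward Nat10 cKO. These values were not divided by library size, so differences in depth stay in them. Before the factors, libraries held 33.5, 34.1 and 65.5 M reads in WT and 74.1, 47.4 and 71.0 M in Nat10 cKO. The part of depth in the shift, and in the larger SEs on this scale, was not tested. With the same factors applied to shares of reads, the median was shifted by -0.15. The higher and lower calls over all genes were 3190 and 3232 with TMM, 1207 and 255 as deposited, and 1027 and 3028 on scaled shares. Tfrc was at 2.43 (SE 0.40) as deposited and 1.88 (SE 0.25) on scaled shares, which is 2.19 and 2.03 above the shifted medians. Tfr2, Slc40a1, Ftl1, Ncoa4 and Slc11a2 were above 0 on all 3 scales, and also above the median of all genes. On scaled shares, however, Slc11a2 at 0.07 (SE 0.22) and Ncoa4 at 0.16 (SE 0.22) lay within their SE of 0. Ftl1 was at 0.29 (SE 0.26) there, little more than its SE. Fth1 turned from 0.12 to -0.09 (SE 0.22), and Aco1 from 0.07 to -0.15 (SE 0.23), on scaled shares. Ireb2 was at 0.0088 (SE 0.40) as deposited, about 0 within its error, and -0.57 (SE 0.20) on scaled shares. Relative to the medians, Ireb2 stayed below 0, at -0.23 and -0.42.

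**Figure D4:**
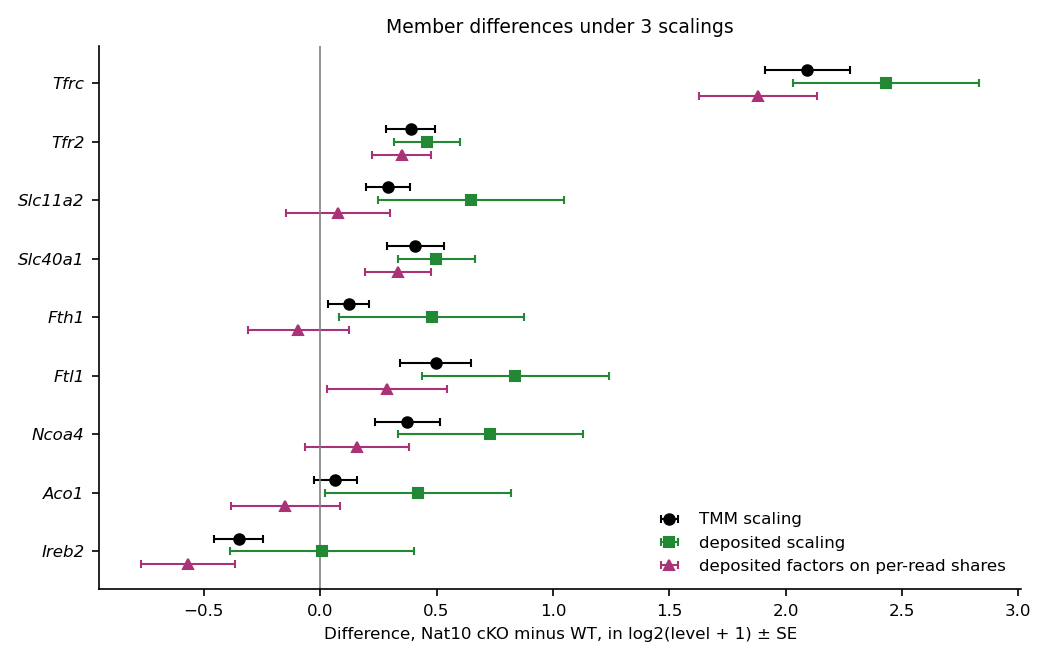
Differences of the 9 tested members, Nat10 cKO minus WT, in log2(level + 1) with SE (x axis), under TMM scaling (black), as deposited (green) and with the deposited factors on per-read shares (purple). Tfrc lies between 1.88 and 2.43 on the 3 scales, whereas Ireb2, Fth1 and Aco1 each have values on both sides of 0.

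The other genes of iron handling were taken from lists by function, and these were tested across all genes. Of 23 tested genes for other iron transport and regulation, 5 rose and 4 fell under TMM scaling, with 3 and 0 as deposited and 0 and 4 on scaled shares. Fbxl5, the iron-sensing ligase subunit that removes IRP2, rose from 145 ± 2.49 to 193 ± 19.7 CPM (0.40, SE 0.093, limma adjusted p = 0.00517). Pcbp1, an iron chaperone that loads ferritin, fell from 206 ± 18.1 to 131 ± 33.3 CPM (-0.68, SE 0.15, limma adjusted p = 0.00324). Neither call held as deposited, and that of Pcbp1 held on scaled shares while that of Fbxl5 did not. Leaving out WT replicate 3 gave 3 rises and 3 falls. Leaving out WT replicate 1 gave 4 rises and 2 falls, the same numbers as leaving out Nat10 cKO replicate 1. The list median was 0.10, against 0.00096 for all tested genes.

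Genes of heme synthesis, transport and breakdown rose more often than they fell under TMM scaling, with 9 of 23 higher and 1 lower, but were 1 and 0 as deposited and 1 and 1 on scaled shares. Uros, which closes the ring of the heme precursor, rose from 13.2 ± 0.209 to 32.3 ± 6.64 CPM (log2 difference 1.21, SE 0.14, limma adjusted p = 8.37e-05, n = 3 per group). Clpx, a mitochondrial chaperone known to act on the first enzyme of the pathway, rose from 57.0 ± 2.52 to 84.5 ± 4.06 CPM. Cpox, a later enzyme of the same pathway, fell from 39.1 ± 0.731 to 19.7 ± 3.57 CPM (-0.97, SE 0.13, limma adjusted p = 0.000189). The rises of Alas1, the first enzyme, and of Alad and Fech were 0.72, 0.46 and 0.59 on the log2 scale; these 3 were chosen after their values were seen, to show the steps of the pathway. Urod and Ppox, between them in the pathway, were at -0.10 and 0.31 and did not pass. The list had 2 falls without Nat10 cKO replicate 2, and its median was 0.33.

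Among 29 genes of iron-sulfur cluster assembly, 7 rose and 3 fell, with 1 and 0 as deposited and 1 and 2 on scaled shares. Glrx5, a mitochondrial glutaredoxin that passes clusters on, fell from 337 ± 10.7 to 196 ± 30.6 CPM (log2 difference -0.79, SE 0.11, limma adjusted p = 0.000198). Isca2, a late-acting assembly factor of mitochondria, rose from 6.04 ± 0.642 to 11.0 ± 2.01 CPM. Ndor1, a reductase of the cytosolic pathway, rose by 0.66 (SE 0.13), but its exons overlap those of other annotated genes, so its value is uncertain. The scaffold Iscu and the desulfurase Nfs1 were at -0.0011 and 0.17 and did not pass. The list median was 0.081.

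Of 23 genes for endocytosis and recycling of the transferrin receptor, 7 rose and 1 fell, with 2 and 0 as deposited and 2 and 1 on scaled shares. Rab5b, a GTPase of early endosomes, rose from 14.2 ± 3.65 to 33.6 ± 8.89 CPM (log2 difference 1.18, SE 0.20, limma adjusted p = 0.000645). Ap2a1, a subunit of the clathrin adaptor, rose from 1.88 ± 0.377 to 4.32 ± 0.672 CPM, and 720 of its exon bases overlap Fuz on the opposite strand. Cltb, a clathrin light chain, fell from 254 ± 7.75 to 182 ± 33.7 CPM. Omitting WT replicate 3 or Nat10 cKO replicate 2 left 2 rises, and omitting replicate 1 of either group left 3. Omitting WT replicate 2 or Nat10 cKO replicate 3 gave 2 falls. The list median was 0.17.

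Of 15 tested genes of ferritin turnover by autophagy, 1 rose and 0 fell by limma, with 2 higher and 1 lower at an unadjusted p under 0.05; edgeR called 0 and 0, and DESeq2 2 and 0. The 1 rise was that of Atg16l1, at 0.27 (SE 0.10, limma adjusted p = 0.0497), and it was lost without any 1 library other than WT replicate 2 and with the replicate number as a block (adjusted p = 0.0554). Rb1cc1 and Atg7 were at -0.26 and 0.27 and did not pass; without Nat10 cKO replicate 3, 2 genes rose and 1 fell, the latter Rb1cc1 at -0.34. The list median was 0.051.

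Of 9 tested regulators of transferrin receptor mRNA, 2 rose and 1 fell, with 1 and 0 as deposited and 1 and 1 on scaled shares. Rc3h1 (Roquin), an RNA-binding protein that promotes decay of its target mRNAs, fell from 42.9 ± 2.74 to 25.3 ± 3.46 CPM (log2 difference -0.75, SE 0.12, limma adjusted p = 0.000549). Its relative Rc3h2 rose from 4.23 ± 0.95 to 7.19 ± 0.602 CPM, and Vhl, which removes hypoxia-inducible factors, from 2.29 ± 0.916 to 6.48 ± 1.26 CPM. Hif1a, a hypoxia-inducible factor gene, was at 349 ± 14.8 in WT and 341 ± 15.3 CPM in Nat10 cKO, a difference of -0.03 that did not pass. The list median was -0.034.

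**Figure D5:**
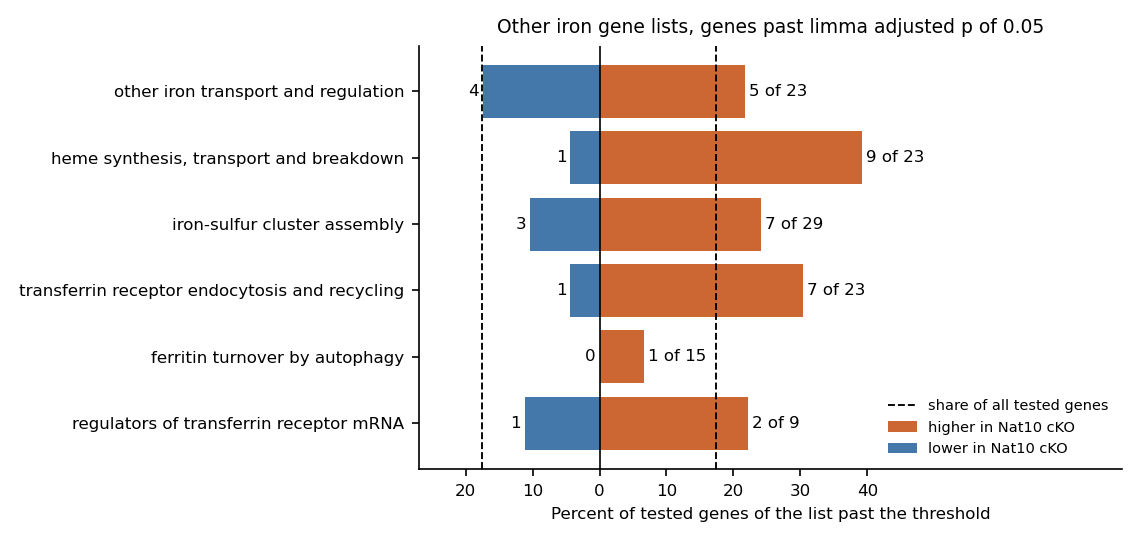
Percent of the tested genes of each list that passed a limma adjusted p of 0.05 under TMM scaling, higher in Nat10 cKO to the right and lower to the left, with numbers of genes beside the bars. Dashed lines mark 17.4% higher and 17.6% lower over all tested genes; heme genes reach 39.1% higher and ferritin turnover genes 6.67%.

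The transcripts that hold a fully paired element in a UTR were counted across the genome, a step chosen after the data had been seen. Of 30 such genes, 22 were tested, 10 of them higher and 1 lower in Nat10 cKO. Without the 4 members, 7 of 18 were higher and 1 was lower, beside 17.4% and 17.6% of all tested genes. The higher ones included Ftl1-ps1, a copy that may share reads with Ftl1 and that the annotation lists as protein-coding. The number higher was 5 as deposited, 3 on scaled shares and 6 without WT replicate 3. No test of the list was made.

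The genes closest to Tfrc in pattern were found by Pearson's r of log2(CPM + 1) over the 6 libraries, among 7976 named genes of at least 10 CPM on average. They were Uros, Cxcl14, Cnot1, Adsl and Nrbp1, all with r of 0.998. This is a description of 6 points that share the difference between the groups, and 760 genes had r above 0.95. Of the 5, Cnot1 and Nrbp1 fell to r of 0.347 and 0.358 on scaled shares.

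Several members are also known from red cell precursors and macrophages, so markers of these and of other ovarian cells were summed in each library. Erythroid markers came to 31.8 to 34.9 in WT and 32.3 to 37.4 CPM in Nat10 cKO libraries, with 10 of 12 genes under 1 CPM in every library and 1 gene at 0 reads in all. Most of that sum was Gata1 and Epb42. Of 6 tested erythroid genes, limma called 2 higher and 1 lower under TMM scaling, while edgeR and DESeq2 each called 1 and 1. Neither deposited scaling called any, nor did limma without WT replicate 1 or Nat10 cKO replicate 1. Under TMM scaling, the macrophage and blood markers had a lower sum in Nat10 cKO, at 51.6 to 56.0 in WT and 41.2 to 44.7 CPM in Nat10 cKO. C1qb made up 78.8% of that sum and went from 44.0 to 32.1 CPM, so the lower sum is largely that of 1 gene. H2-Aa and Cd68 followed, at 6.72 and 1.78 in WT and 7.33 and 2.24 CPM in Nat10 cKO. These were slightly higher in Nat10 cKO and not called. Of 11 genes, 8 were under 1 CPM and C1qc was at 0 reads. Of 5 tested, limma called 2 lower and 0 higher (0 lower as deposited, and 1 on omitting WT replicate 3 or Nat10 cKO replicate 1), with 0 higher also at an unadjusted p under 0.05 and with edgeR or DESeq2. Granulosa and cumulus markers overlapped, at 418 to 471 in WT and 396 to 439 CPM in Nat10 cKO, 71.8% of it Serpine2, with Cyp19a1 and Nr5a2 next. Of 12 tested, 1 was higher and 2 lower under TMM scaling, and 1 and 0 as deposited. Leaving out single libraries gave 0 to 2 higher and 1 to 3 lower. Oocyte markers summed to 23049 to 23910 in WT and 28234 to 33627 CPM in Nat10 cKO under TMM scaling. Of 12 tested, 9 were higher and 2 lower under TMM scaling, but 2 and 0 as deposited and 3 and 2 on scaled shares. Zp2 went from 2885 to 5629 CPM under TMM scaling and kept its call on both of these scales. Gdf9 and Bmp15 lost their calls on both, and Bmp15 also with edgeR and with the replicate block (adjusted p = 0.057 in each). The part of these sums in the member differences was not tested.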

How the data were processed

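RNA-seq of 6 oocyte libraries was analysed, 3 per genotype. The deposited table holds whole counts of reads per gene for WT replicate 1 and, for the other 5 libraries, a signal in which counts were multiplied by 1 factor each (0.908 to 1.38); no source states how the authors chose the factors. The submitters' processing notes list featureCounts, STAR (2.7.10a) and Trim Galore (0.6.7) with mm10 as build. After division by the factor, 100% of the values were whole to within 0.001, and on these reads edgeR called 3053 genes higher and 3149 lower. The deposited table's name refers to ERCC spike-ins, and the table as used here holds 0 ERCC rows, so whether the factors rest on spike-ins was not tested. Libraries held 33.5 to 74.1 M reads.

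From these reads, CPM was computed with TMM factors after filterByExpr (minimum count 10; 18353 genes). Nat10 cKO was compared with WT by limma (trended, robust) on log2(CPM + 1), two-sided, with Benjamini-Hochberg adjustment over all tested genes and a threshold of 0.05. Alternatives were median-of-ratios factors, library sizes only, the deposited values, the deposited factors on per-read shares, no filter, a pseudocount of 0.1, edgeR, DESeq2, the replicate number as a block, and leaving out each library. The deposited values were divided by the same constant in all libraries and not by library size. The fit was tested on simulated data with known changes, with 17969 genes kept by the filter. It recovered 44% of 1.5-fold, 63.3% of 2-fold, 80% of 4-fold and 98% of 8-fold changes. Of unchanged genes it called 0.0563%. A gene that was not called may therefore still differ by a small fold. The members and lists were chosen with earlier results of these data known. Named were all members, Nat10, the 3 genes of smallest p in each iron list, the 3 most abundant of each marker list, and the 5 genes most like Tfrc; some genes the rule names are not reported here, and others are said to be chosen after their values were seen. GENCODE M21 (GRCm38, the assembly of mm10) matched 53292 of 55291 symbols and gave positions, lengths and transcripts. Exons of Pcbp1, Fbxl5, Cpox, Alas1, Ppox, Nfs1, Hif1a, Ap2a1 and Rb1cc1 overlap a gene on the opposite strand. Those of Nfs1 and Hif1a also overlap a gene on the same strand (Gm28036, 256 bases, and Gm49321, 148 bases). Software was limma 3.58.1, edgeR 4.0.16 and DESeq2 1.42.0 in R 4.3.3, with scipy 1.17.1, pandas 2.3.3, matplotlib 3.10.9 and numpy 2.4.6 in Python 3.11.15.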

Additional observations from a re-analysis of the deposited data

How the results depend on the processing

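With the deposited values, 1207 genes were higher and 255 lower; members were 3 and 0, other iron transport 3 and 0, heme 1 and 0, iron-sulfur assembly 1 and 0, receptor endocytosis 2 and 0, ferritin turnover 0 higher, receptor mRNA regulators 1 and 0, and genes with a fully paired UTR element 5 higher. With the deposited factors on per-read shares, 1027 genes were higher, with 2 members, 0 other iron transport, 1 heme, 1 iron-sulfur, 2 endocytosis, 0 ferritin turnover and 1 regulator gene higher, and 3 with a UTR element. Without a filter, 3 members were higher and 0 lower, 2 other iron transport genes lower, 2 endocytosis genes and 0 ferritin turnover genes higher; more genes were tested there. Ferritin turnover had 0 rises with edgeR or the replicate block and 2 with DESeq2. Leaving out 1 library gave 2108 to 3431 genes higher and 2201 to 3334 lower. Members ranged from 1 to 6 higher and 0 to 1 lower, other iron transport from 3 to 6 and 2 to 4, heme from 7 to 11 and 1 to 2, iron-sulfur assembly from 5 to 8 and 2 to 3, endocytosis from 2 to 7 and 1 to 2, ferritin turnover from 0 to 2 and 0 to 1, and genes with a UTR element from 6 to 11 higher. Directions turned as deposited for Ireb2 (0.0088), Rb1cc1 (0.094), Serpine2 (0.25) and Cyp19a1 (0.031), on per-read shares for the members Fth1 (-0.095) and Aco1 (-0.15), which were not past the threshold, and for H2-Aa on per-read shares (-0.095) and without Nat10 cKO replicate 2 (-0.075; up to 0.19 without the other libraries). Ireb2 as deposited, and Fth1 and Aco1 on per-read shares, lay within their SE of 0, so their turned signs are not reversals beyond error. The cause of the turned signs was not tested. The members with a UTR element numbered 4 whether or not 1 stem position was allowed to differ from a Watson-Crick pair. Same-numbered libraries are tied by no label other than the number. Their deviations from the group means correlated at 0.079, 0.075 and -0.12, and WT replicate 3 correlated best with Nat10 cKO replicate 1 (0.24). With 3 libraries per group, these values cannot decide whether same-numbered libraries shared a batch. The replicate block gave 3070 genes higher and 3164 lower, and 6 members higher and 1 lower. Tfr2, Steap3 and Slc40a1 rest on so few reads that their differences are limited by depth.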
